A study of Mus musculus with 21 samples.

Results

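Cxcl9, Cxcl10 and Cxcl11, the 3 chemokines that bind the receptor CXCR3, and Ccl5 were followed across 21 arrays of bone marrow-derived dendritic cells. The 4 genes were chosen by name, as interferon-responsive chemokines, from 16593 named genes on the array, and each had 1 probe. Cxcl10 was higher in relb-/- than in WT cells in 7 of 7 conditions, and Ccl5 was too. Cxcl9 was lower than in WT cells in both mutant genotypes. Cxcl11 never rose above the median brightness of the array, and 3 of the 4 genes could be tested.

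The cells were grown from the marrow of C57Bl6 mice of 3 genotypes: crel-/-relb-/-, which lack the NF-kB subunits c-Rel and RelB, relb-/-, and wild type (WT). For every genotype there was 1 array of unstimulated cells at 0 h and 1 each after 1, 8 and 24 h with 1 of 2 agents. CpG is DNA that activates TLR9, and Pam3CSK4 is a synthetic lipopeptide that activates TLR2 paired with TLR1. No genotype was therefore replicated within a condition, and the labels do not say whether the 7 arrays of a genotype came from separate cultures or animals. The values are the normalized intensities that the authors deposited for 25697 probes, on a linear scale, and their background was not subtracted, so that fold differences of dim probes are understated.

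Array medians lay between 47.1 and 47.4, and the median of all values was 47.3. Rel, which encodes c-Rel, had 33.6 to 45.5 in crel-/-relb-/- cells, 100.9 to 214.1 in relb-/- cells and 61.1 to 206.5 in WT cells. Relb, which encodes RelB, had 60.6 to 179.7 in crel-/-relb-/- cells, 65.9 to 152.7 in relb-/- cells and 148.3 to 267.0 in WT cells. The Relb probe's place relative to the targeted part of the gene was not known here, so its remaining signal does not check the label. The dendritic cell markers Itgax, Cd74 and H2-Ab1 were above the median on 21 of 21 arrays, while Flt3 and Xcr1, which mark some dendritic cell subsets, were above it on 0. Of the macrophage and monocyte markers, Adgre1, Cd14, C1qb, C1qc and Mrc1 were above it on 21 too, Fcgr1 on 20 and C1qa on 8. These levels therefore do not show which cell type prevailed. Of the 21 arrays, the 24 h CpG array of crel-/-relb-/- cells stood apart, with a residual SD of 0.189 on the log2 scale in the fit of genotype and condition, against 0.0966 to 0.140 on the others.

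Chemokines are small secreted proteins that guide leukocytes through G protein-coupled receptors. CXCR3 is carried by activated T cells and natural killer (NK) cells, which its ligands draw to inflamed tissue. Cxcl9 is best known as a target of interferon-gamma, whereas Cxcl10 also answers type I interferon and NF-kB. Ccl5, also called RANTES, attracts T cells and monocytes and is made by T cells and NK cells as well as by dendritic cells and macrophages. Dendritic cells release these chemokines after activation through Toll-like receptors, in part through the interferon-beta that they make themselves.

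Cxcl9, Cxcl10 and Cxcl11 lie beside each other on mouse chromosome 5, with Art3 between Cxcl9 and Cxcl10, and Ccl5 lies on chromosome 11 near the chemokine genes Ccl9 and Ccl6. The table of RefSeq promoters held 2 of the 4 genes. The 250 bases before the start of each are shown because Cxcl10 and Cxcl9 differed in their pattern over the arrays. They come from RefSeq's GRCm38.p6 assembly, minus strand, at chr5:92328080-92328329 for Cxcl9 and at chr5:92348890-92349139 for Cxcl10, and are written 5′ to 3′ along the gene with capitals for motif matches.
Cxcl9: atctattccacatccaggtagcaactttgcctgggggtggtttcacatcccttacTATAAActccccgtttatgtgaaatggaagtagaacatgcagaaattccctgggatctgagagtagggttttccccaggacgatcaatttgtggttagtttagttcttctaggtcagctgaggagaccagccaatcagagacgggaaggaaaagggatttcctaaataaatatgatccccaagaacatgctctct
Cxcl10: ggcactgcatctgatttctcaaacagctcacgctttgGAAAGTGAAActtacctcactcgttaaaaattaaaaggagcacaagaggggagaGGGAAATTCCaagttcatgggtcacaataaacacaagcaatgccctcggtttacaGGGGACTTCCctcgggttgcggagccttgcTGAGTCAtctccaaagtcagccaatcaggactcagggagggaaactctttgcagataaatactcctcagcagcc

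The letters of the interferon-stimulated response element (GAAA, any 2 bases, GAAA), the gamma-activated site (TTCNNNGAA), NF-kB sites (GGG, any 3 bases, TTCC), AP-1 sites (TGANTCA) and TATAAA were searched on both strands from 250 bases before to 50 after the start. In Cxcl10 the capitals mark, from left to right, 1 interferon-stimulated response element, 213 to 204 bases before the start, the NF-kB matches GGGAAATTCC and GGGGACTTCC, and an AP-1 match. In Cxcl9 the capitals mark TATAAA, and an AP-1 match lies after the start, outside the bases shown. None of the matches in Cxcl10 overlap. Of all 32851 promoters in the table, 3.44% held the response element, 8.3% the gamma-activated site, 5.56% the NF-kB letters, 7.81% the AP-1 letters and 13.6% TATAAA, and 0.167% held both the response element and the NF-kB letters. A match is a description of the letters, and binding was not measured.

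**Figure D1:**
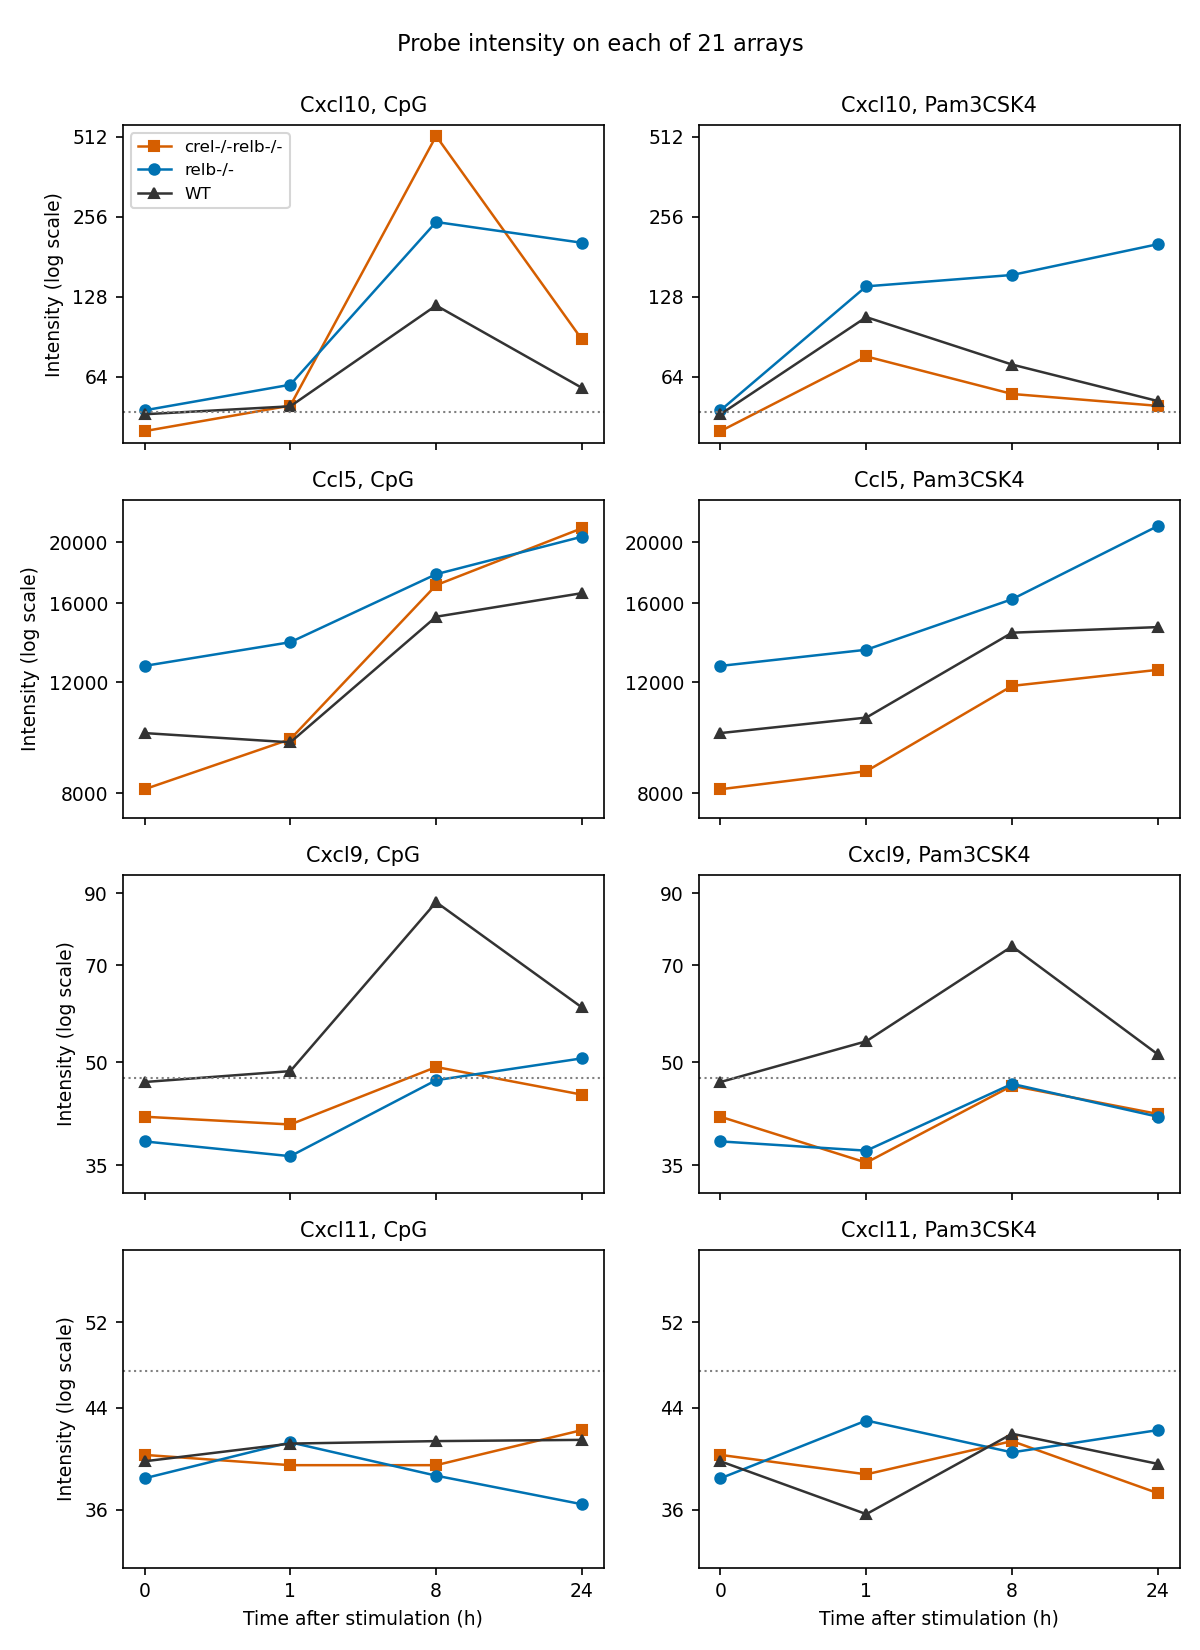
Normalized intensity (log scale) of Cxcl10, Ccl5, Cxcl9 and Cxcl11 against time in hours (evenly spaced, not to scale), 1 point per array, for crel-/-relb-/-, relb-/- and WT cells with CpG or Pam3CSK4; the dotted line is the median of all values, 47.3. Cxcl10 reached its highest value, 515.6, in crel-/-relb-/- cells at 8 h with CpG, while Cxcl11 stayed between 35.7 and 42.9.

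Cxcl10 was the chemokine of the 4 that varied most over the arrays, from 40.0 to 515.6, a 12.9-fold range. In crel-/-relb-/- cells it had 40.0 unstimulated, 49.9, 515.6 and 88.5 after 1, 8 and 24 h with CpG, and 76.4, 55.2 and 49.8 after 1, 8 and 24 h with Pam3CSK4. In relb-/- cells it had 47.9 unstimulated, 59.8, 244.8 and 204.5 with CpG, and 140.2, 154.7 and 202.0 with Pam3CSK4. In WT cells it had 46.3 unstimulated, 49.6, 118.8 and 58.2 with CpG, and 107.4, 71.2 and 51.9 with Pam3CSK4. The genotypes were close together and near the median of all values when unstimulated. At 8 and 24 h the relb-/- arrays, at 154.7 to 244.8, did not overlap the WT arrays, at 51.9 to 118.8, and the crel-/-relb-/- arrays overlapped both.

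Over the 7 conditions Cxcl10 averaged 151 ± 74.5 in relb-/- cells and 71.9 ± 29.4 in WT cells (SD, n = 7 each). Its log2 difference of relb-/- over WT cells was 0.95 ± 0.26 (SE), higher in 7 of 7 conditions, and limma called it at an adjusted p of 0.0229. In that comparison 11.7% of the 10587 genes tested were called, 6.03% higher and 5.65% lower. All 3 chemokines tested were among them, Cxcl10 and Ccl5 higher and Cxcl9 lower. Cxcl9 passed the filter on dim probes only through its WT arrays, so its call adds no support to this count. The call was lost without the CpG 24 h arrays (0.80, adjusted p 0.0828), without those of Pam3CSK4 at 8 h (0.92, adjusted p 0.0555) and without those of Pam3CSK4 at 24 h (0.78, adjusted p 0.0773).

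On the single arrays that difference was larger at 8 and 24 h than at 0 and 1 h, though the test of a change with time did not call it. Cxcl10 was 1.03 to 1.31 times WT in the relb-/- cells at 0 and 1 h and 2.06 to 3.89 times WT at 8 and 24 h. At 8 and 24 h alone the log2 difference was 1.48 ± 0.31 (adjusted p 0.00539), in a comparison that called 6.80% of genes. The difference between late and early times was 1.25 ± 0.47 and was not called (adjusted p 0.534, 0.170% of genes called), but it was called when the CpG 8 h arrays were left out (1.40, adjusted p 0.0166).

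The crel-/-relb-/- value of Cxcl10 depended on 1 array. It averaged 125 ± 173 there (SD, n = 7), and its log2 difference from WT cells was 0.23 ± 0.26 (95% interval -0.32 to 0.78, adjusted p 0.621), higher in 3 and lower in 4 conditions. The 1 high value was at 8 h with CpG, where the crel-/-relb-/- array had 4.34 times the WT intensity and 2.11 times the relb-/- intensity. In the other conditions the crel-/-relb-/- array was below the relb-/- array in 6 of 6, by 4.06-fold at 24 h with Pam3CSK4. Against relb-/- cells the difference was -0.72 ± 0.26 and was not called (adjusted p 0.0614), and without the CpG 8 h arrays it was -1.02 and called (adjusted p 0.00166). In the late comparison of the same genotypes it was -0.91 ± 0.31 (adjusted p 0.0543), and -1.57 without the CpG 8 h arrays (adjusted p 4.31e-06). Without those arrays the difference from WT cells was -0.086 (adjusted p 0.837), and the late minus early difference from relb-/- cells was -1.11 (adjusted p 0.0327), against -0.44 with them, which was not called.

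Ccl5 was already bright before stimulation and its rank from the brightest ran from 14 to 89 among the 25697 probes of an array. The crel-/-relb-/- cells had 8124.1 unstimulated, 9750.8, 17098.2 and 21040.6 after 1, 8 and 24 h with CpG, and 8675.6, 11842.4 and 12557.0 with Pam3CSK4. In relb-/- cells it had 12737.4 unstimulated, 13887.8, 17793.8 and 20400.8 with CpG, and 13510.4, 16243.8 and 21214.7 with Pam3CSK4. In WT cells it had 9970.6 unstimulated, 9639.9, 15239.4 and 16606.6 with CpG, and 10550.5, 14377.0 and 14673.0 with Pam3CSK4. The relb-/- array was the highest of the 3 genotypes in 6 of 7 conditions, the exception being CpG at 24 h, and the genotypes' ranges over all conditions overlapped. As the cultures were measured in bulk, more cells with Ccl5 and more Ccl5 RNA per cell cannot be told apart, here or for the other genes.

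The difference of Ccl5 between relb-/- and WT cells had the same sign in every condition, with a log2 difference of 0.18 to 0.53. Its intensity averaged 16541 ± 3393 in relb-/- cells and 13008 ± 2863 in WT cells (SD, n = 7 each). The log2 difference was 0.35 ± 0.08, higher in 7 of 7 conditions (adjusted p 0.00587), and at 8 and 24 h alone it was 0.31 ± 0.10 and not called (adjusted p 0.0733). That late value was called without the 24 h CpG array of crel-/-relb-/- cells (adjusted p 0.0242).

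With c-Rel absent as well, Ccl5 averaged 12727 ± 4752 (SD, n = 7). Its log2 difference from WT cells was -0.08 ± 0.08 (95% interval -0.25 to 0.09, adjusted p 0.559), higher in 3 and lower in 4 conditions. Of the 3 chemokines tested, 1, namely Cxcl9, was called in that comparison, where 15.4% of genes were called, 7.65% higher and 7.74% lower. Because of the filter on dim probes, the Cxcl9 call is no independent support there either. Against relb-/- cells Ccl5 was lower in 6 of 7 conditions, by -0.43 ± 0.08 on the log2 scale (adjusted p 5.27e-04). It was the 1 of the 3 called in this comparison, where 19.8% of genes were called, 10.5% higher and 9.28% lower. At 8 and 24 h the difference was -0.31 ± 0.10 (adjusted p 0.0443, 14.8% of genes called), and -0.16 without the Pam3CSK4 24 h arrays (adjusted p 0.365). The call was also lost without the unstimulated arrays, those at 1 h with either agent, or those of Pam3CSK4 at 8 h (adjusted p 0.0626 to 0.162). With CpG the crel-/-relb-/- array was 1.04-fold lower than the relb-/- array at 8 h and 1.03-fold higher at 24 h.

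**Figure D2:**
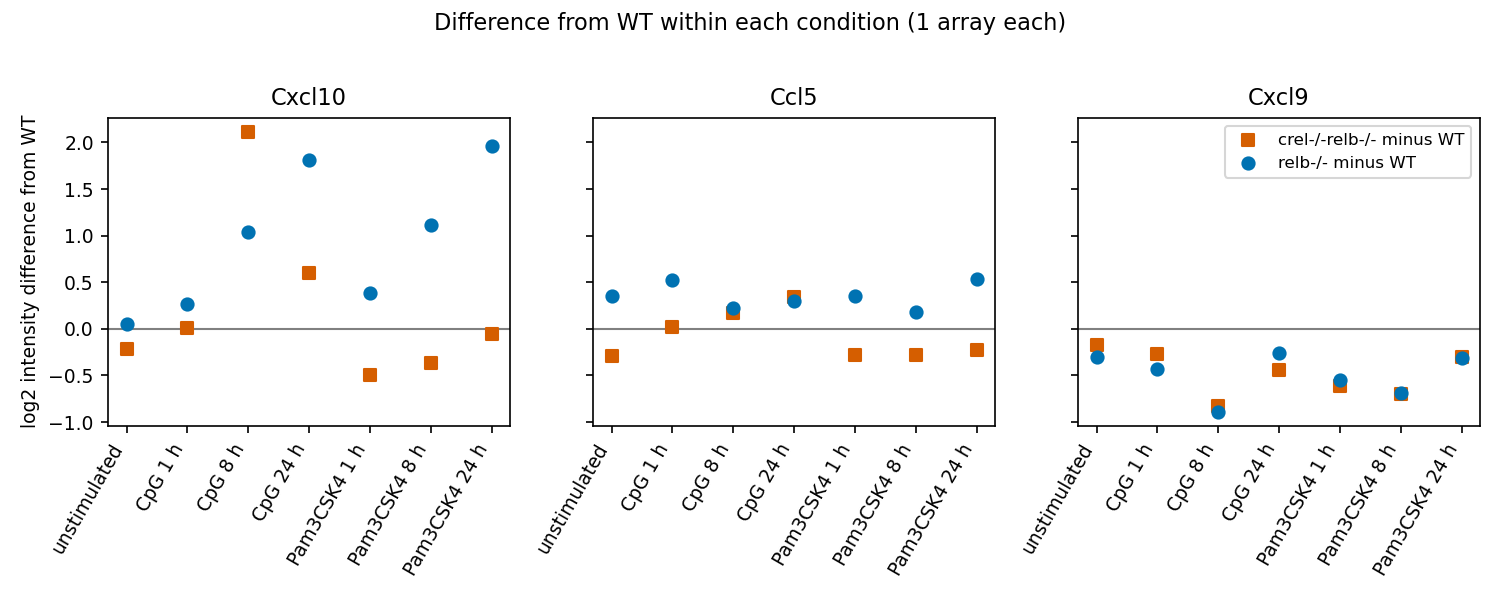
Log2 difference of intensity of crel-/-relb-/- and of relb-/- cells from WT cells for Cxcl10, Ccl5 and Cxcl9 in each of the 7 conditions, 1 array per genotype and condition; 0 is no difference. The relb-/- points lie above 0 in 7 of 7 conditions for Cxcl10 and Ccl5 and below 0 in 7 of 7 for Cxcl9, while the crel-/-relb-/- points of Cxcl10 reach 2.12 at 8 h with CpG.

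Cxcl9 was dim, above the median of all values on 8 of 21 arrays, and lower in both mutants than in WT cells. Intensities in crel-/-relb-/- cells were 41.4 unstimulated, 40.3, 49.2 and 44.7 after 1, 8 and 24 h with CpG, and 35.3, 46.1 and 41.8 with Pam3CSK4. In relb-/- cells it had 38.0 unstimulated, 36.1, 47.0 and 50.7 with CpG, and 36.8, 46.4 and 41.4 with Pam3CSK4. In WT cells it had 46.7 unstimulated, 48.5, 87.2 and 60.5 with CpG, and 53.8, 74.8 and 51.4 with Pam3CSK4. The WT array was the brightest in 7 of 7 conditions, most of all at 8 h with either agent, and the mutant arrays stayed near the median of all values.

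Cxcl9 averaged 42.7 ± 4.49 in crel-/-relb-/- cells, 42.3 ± 5.74 in relb-/- cells and 60.4 ± 15.2 in WT cells (SD, n = 7 each). Set against WT cells, the log2 difference was -0.47 ± 0.07 in crel-/-relb-/- cells (adjusted p 5.92e-05) and -0.49 ± 0.07 in relb-/- cells (adjusted p 7.05e-05). Each mutant was below WT in 7 of 7 conditions. Cxcl9 passed the filter on dim probes only through its WT arrays, whose 87.2, 74.8 and 60.5 were its highest values, so it had to differ, and these p-values are no independent support for its direction. Both comparisons share the WT arrays. Between crel-/-relb-/- and relb-/- cells the difference was 0.02 (95% interval -0.13 to 0.16, adjusted p 0.909). Both mutants lay near background, so this does not show that they are alike. At 8 and 24 h the differences from WT cells were -0.56 ± 0.09 in crel-/-relb-/- cells (adjusted p 2.86e-04, 10.2% of genes called) and -0.54 ± 0.09 in relb-/- cells (adjusted p 7.84e-04). No change of the Cxcl9 difference between early and late times was called in any pair of genotypes (0.170%, 0.378% and 0.520% of genes called).

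Most tested markers of T cells and NK cells were lower in the mutants, as Cxcl9 was. Of 14 listed markers 13 were on the array and 8 passed the filter on dim probes. In crel-/-relb-/- cells 5 of these 8 were lower than in WT cells and 0 higher, beside 7.74% and 7.65% of all genes. Their median log2 difference was -0.53. In relb-/- cells 5 were lower and 1 higher, beside 5.65% and 6.03% of all genes, with a median of -0.88. The marker Trat1 passed the filter through its WT arrays, at 65.8 to 203.8 against 54.3 or less in the mutants, so it had to differ. Cd3d, a chain of the T cell receptor complex, fell by 0.88 in crel-/-relb-/- cells and by 1.27 in relb-/- cells, and Nkg7, a cytotoxic granule protein, fell by 0.74 and by 1.35 in the same order. The 1 called higher in relb-/- cells was Klrd1, a receptor chain of NK cells, at 0.34 (adjusted p 0.00155), and Prf1, the pore-forming protein perforin, was at 0.21 there and not called (adjusted p 0.078). The summed intensity of the 8 markers, Trat1 among them, was 439 to 486 in crel-/-relb-/- cells, 392 to 501 in relb-/- cells and 633 to 801 in WT cells. In this sum neither mutant overlapped WT. Gzma, Gzmb, Cd8a, Cd4 and Ncr1 were above the median of all values on 0 arrays. The part of these cells in the Cxcl9 difference was not tested. Ccl5, which T cells also make, was higher in relb-/- than in WT cells, and 5 of these 8 markers were lower there. The part of these cells in the Ccl5 difference was not tested either.

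Cxcl11 stayed dim on every array. Its intensity was 37.2 to 42.1 in crel-/-relb-/- cells, 36.4 to 42.9 in relb-/- cells and 35.7 to 41.8 in WT cells, and was above the median of all values on 0 of 21 arrays. The RefSeq table, made from the C57BL/6J assembly, lists mouse Cxcl11 as a transcribed pseudogene. With no filter on dim probes Cxcl11 was called in 0 of 23 comparisons with limma, at log2 differences of -0.19 to 0.16 and a smallest adjusted p of 0.68. Its signal could not be told apart from background at this brightness.

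Cxcl10, Ccl5 and Cxcl9 were higher at 8 h with CpG than in unstimulated cells. The unstimulated arrays were all at 0 h. Effects of an agent and of hours in culture therefore cannot be told apart in the comparisons with unstimulated cells. Over the 3 genotypes Cxcl10 averaged 293 ± 203 after 8 h with CpG and 44.7 ± 4.18 unstimulated (SD, n = 3 each), a log2 difference of 2.47 ± 0.40 (adjusted p 8.39e-05). Ccl5 averaged 16711 ± 1321 and 10277 ± 2322 in the same order, a difference of 0.72 ± 0.12 (adjusted p 1.17e-04). Cxcl9 averaged 61.1 ± 22.6 and 42.0 ± 4.38, a difference of 0.49 ± 0.10 (adjusted p 0.00134). Cxcl9 passed the filter on dim probes through stimulated arrays, with 46.7 or less unstimulated. Its calls as higher at 8 and 24 h with CpG and at 8 h with Pam3CSK4 are therefore no independent support. Cxcl10 passed through stimulated arrays too, with 47.9 or less unstimulated, so the same holds for its calls as higher with either agent. All 3 chemokines tested were called higher, beside 26.3% of genes called, 13.1% higher and 13.2% lower. After 1 h with CpG none was called (0.387% of genes called), and Cxcl10 differed by 0.25 ± 0.40 (adjusted p 0.965).

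By 24 h with CpG, Ccl5 was at 0.93 ± 0.12 over unstimulated cells (adjusted p 5.46e-06), Cxcl10 at 1.19 ± 0.40 (adjusted p 0.0328) and Cxcl9 at 0.30 ± 0.10 (adjusted p 0.0381). These were again 3 of 3 called higher, beside 27.2% of genes called and 14.9% called higher. The limit from the filter holds here too for Cxcl10 and Cxcl9. Without the relb-/- arrays the calls of Cxcl10 (0.74, adjusted p 0.281) and Cxcl9 (0.24, adjusted p 0.264) were lost. Without the 24 h CpG array of crel-/-relb-/- cells they were lost too, at adjusted p values of 0.0701 and 0.0526. Between 8 and 24 h Cxcl10 fell by 1.28 ± 0.40 on the log2 scale (adjusted p 0.0389), the 1 of 3 called beside 14% of genes called and 5.88% called lower. This call was lost without the crel-/-relb-/- arrays (-0.64, adjusted p 0.316), without the WT arrays (-1.40, adjusted p 0.111) and without the 24 h CpG array of crel-/-relb-/- cells (adjusted p 0.0956).

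With Pam3CSK4, Ccl5 and Cxcl9 were called and Cxcl10 was not. Ccl5 was higher than unstimulated by 0.47 ± 0.12 at 8 h (adjusted p 0.0059) and by 0.64 ± 0.12 at 24 h (adjusted p 3.73e-04), and Cxcl9 by 0.37 ± 0.10 at 8 h (adjusted p 0.0107). Of the 3 chemokines, 2 were called at 8 h beside 26.1% of genes, 12.5% higher and 13.6% lower, and 1 at 24 h beside 27.8% of genes, 14.5% higher. The Ccl5 call at 8 h was lost without the WT arrays (adjusted p 0.0926), and the Cxcl9 call without the relb-/- arrays (adjusted p 0.0522) or the WT arrays (adjusted p 0.100). Cxcl10 was not called with Pam3CSK4 at any time, at 1.23 ± 0.40 after 1 h (adjusted p 0.211, 1.53% of genes called), 0.93 ± 0.40 after 8 h (adjusted p 0.102) and 0.85 ± 0.40 after 24 h (adjusted p 0.131). Without the crel-/-relb-/- arrays it was called at 8 h (1.16, adjusted p 0.0301) and at 24 h (1.12, adjusted p 0.0326). Between 8 and 24 h none of the 3 was called (11.6% of genes called).

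The fold of Cxcl10 at 8 h with CpG over the genotype's own unstimulated array was 12.9 in crel-/-relb-/- cells, 5.11 in relb-/- cells and 2.57 in WT cells. At 24 h it was 2.21, 4.27 and 1.26 in the same order. After 24 h with Pam3CSK4 it was 1.25 in crel-/-relb-/- cells, 4.22 in relb-/- cells and 1.12 in WT cells. The relb-/- cells thus held a raised level at 24 h with both agents, and each of these folds rests on 2 arrays and has no test. For Ccl5 the fold at 24 h with CpG was 2.59 in crel-/-relb-/- cells, 1.60 in relb-/- cells and 1.67 in WT cells, from unstimulated levels of which the crel-/-relb-/- one was the lowest. For Cxcl9 the fold at 8 h with CpG was 1.19 in crel-/-relb-/- cells, 1.24 in relb-/- cells and 1.87 in WT cells.

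**Figure D3:**
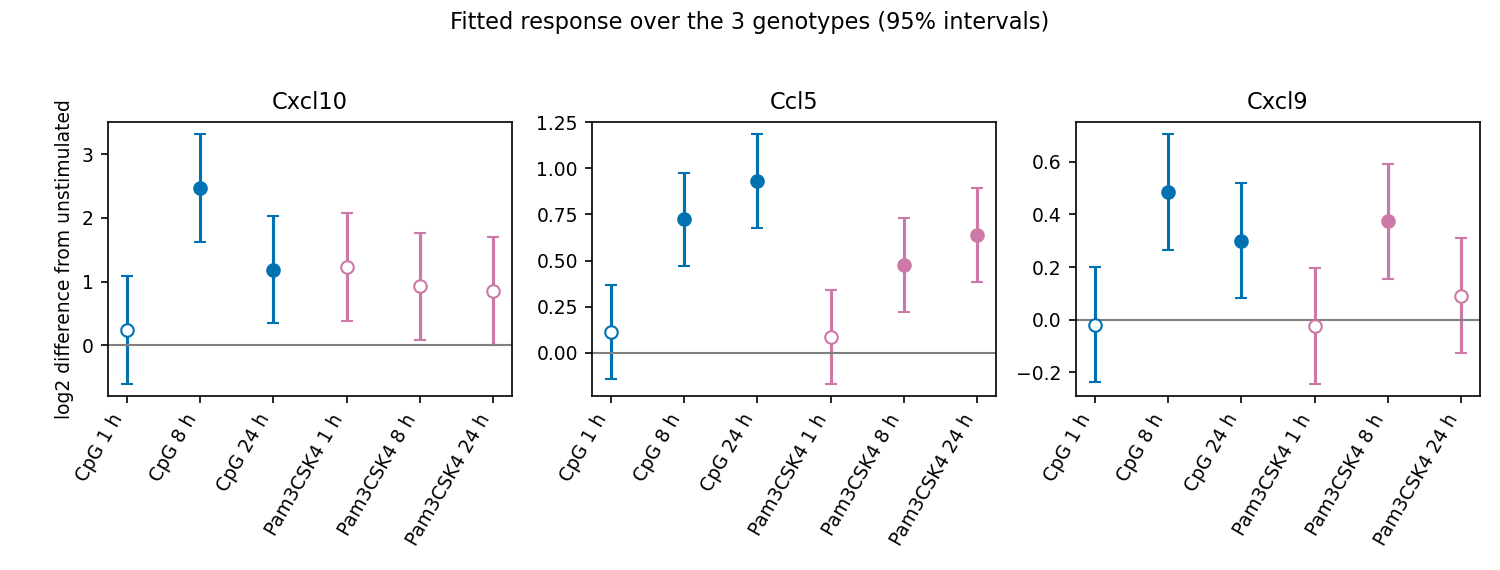
Log2 difference from unstimulated cells of Cxcl10, Ccl5 and Cxcl9 after 1, 8 and 24 h with CpG or Pam3CSK4, from the fit over the 3 genotypes; bars are 95% intervals, each gene has its own axis range, filled points were called and open points were not. Cxcl10 with CpG at 8 h is the highest point, at 2.47, and Ccl5 is at 0.93 at 24 h with CpG.

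No difference between the agents was called for any of the 3 chemokines. At 8 h Cxcl10 was higher with CpG than with Pam3CSK4 in 3 of 3 genotypes, by 9.34-fold in crel-/-relb-/- cells, 1.58-fold in relb-/- cells and 1.67-fold in WT cells. The fitted log2 difference was 1.54 ± 0.40 (95% interval 0.70 to 2.38, adjusted p 0.151), in a comparison that called 0.104% of genes. At 1 h the order was turned, and Cxcl10 was lower with CpG in 3 of 3 genotypes, by -0.99 ± 0.40 on the log2 scale (95% interval -1.83 to -0.14, adjusted p 0.709, 0.567% of genes called). At 24 h the difference was 0.34 ± 0.40 for Cxcl10 and 0.29 ± 0.12 for Ccl5 (adjusted p 0.744 and 0.245, 2.47% of genes called).

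Whether a genotype difference was another with CpG than with Pam3CSK4 was tested in 3 comparisons, in which limma called 0 genes (0%), while 245, 462 and 530 genes had an unadjusted p under 0.05. For Cxcl10 in crel-/-relb-/- over WT cells the difference between agents was 1.22 ± 0.49 on the log2 scale, and for Ccl5 it was 0.44 ± 0.14 (adjusted p 0.961 each). Against relb-/- cells the values were 1.33 ± 0.49 and 0.44 ± 0.14 (adjusted p 0.891 each). In relb-/- over WT cells they were -0.11 ± 0.49 and -0.01 ± 0.14.

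Genes of interferon production and signalling were more often called higher than lower in relb-/- cells. Of 30 listed genes 26 were tested, and in relb-/- over WT cells 9 were called higher and 2 lower, beside 6.03% and 5.65% of all genes, with a median log2 difference of 0.20 against -0.01 over all genes. Ifnb1, which encodes interferon-beta, was 1.99 ± 0.24 higher (adjusted p 8.76e-06). It lay near background in WT cells, above the median of all values on 1 of 7 arrays, so the size is likely understated. With 103.3 and 56.9 in crel-/-relb-/- cells and 51.9 in WT cells, Ifnb1 would pass the filter without the relb-/- arrays. Irf7, the factor that amplifies type I interferon, was higher by 1.60 ± 0.27 (adjusted p 4.66e-04). Irf8, a factor of dendritic cell development, fell by 0.88 ± 0.09 (adjusted p 9.4e-07). Set against WT cells, crel-/-relb-/- cells had 1 higher and 3 lower, near the 7.65% and 7.74% of all genes, among them Irf1, a factor induced by interferon-gamma, at -1.02 ± 0.14 (adjusted p 2.95e-05), and the median was -0.08. Between crel-/-relb-/- and relb-/- cells 0 were higher and 12 lower, beside 10.5% and 9.28% of all genes, with a median of -0.25.

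The Ifnb1 intensity was 35.5 unstimulated, 39.7, 103.3 and 56.9 after 1, 8 and 24 h with CpG, and 36.7, 38.8 and 34.1 with Pam3CSK4 in crel-/-relb-/- cells. In relb-/- cells it was 102.1 unstimulated, 96.9, 167.0 and 487.0 with CpG, and 98.9, 150.2 and 278.8 with Pam3CSK4. In WT cells it was 38.3 unstimulated, 34.6, 46.5 and 41.6 with CpG, and 51.9, 40.2 and 40.9 with Pam3CSK4. The relb-/- arrays, at 96.9 or more, did not overlap the WT arrays, at 51.9 or less. Among the crel-/-relb-/- arrays Ifnb1 and Cxcl10 were both highest at 8 h with CpG. In unstimulated cells Cxcl10 had 47.9 in relb-/- and 46.3 in WT cells, both near the median of all values, where a difference could hardly be seen. Each of these values rests on 1 array, and a link between Ifnb1 and Cxcl10 was not tested. The probe of Ifng, which encodes interferon-gamma, was near the median of all values, and its log2 difference of relb-/- over WT cells was -0.17 ± 0.06 (adjusted p 0.058).

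**Figure D4:**
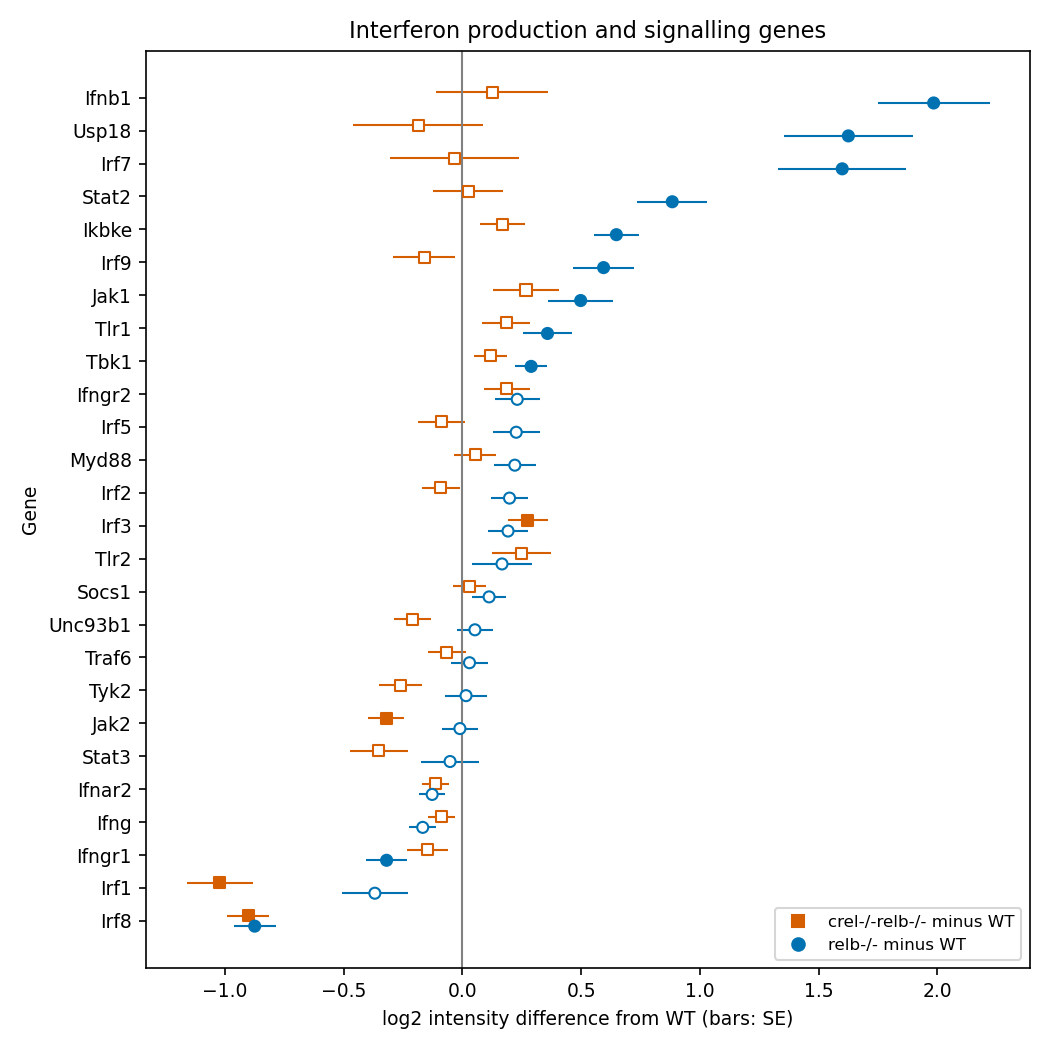
Log2 intensity difference from WT cells of crel-/-relb-/- cells (squares) and relb-/- cells (circles) for the 26 tested genes of interferon production and signalling; bars are SEs, filled points were called and open points were not. Ifnb1, at 1.99, is the highest relb-/- point and lies beside 0.13 in crel-/-relb-/- cells, and Irf8 is called lower in both.

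Interferon-stimulated genes outside the 4 chemokines were mostly higher in relb-/- cells. Of 32 listed genes 27 were tested, and in relb-/- over WT cells 22 were higher and 0 lower, beside 6.03% and 5.65% of all genes, with a median log2 difference of 0.89. In crel-/-relb-/- over WT cells 0 were higher and 6 lower, beside 7.65% and 7.74% of all genes, with a median of 0.10, and 4 of these 6 were guanylate-binding proteins, Gbp2 (-1.09), Gbp3 (-1.08), Gbp5 (-0.83) and Gbp7 (-0.46). Over relb-/- cells, crel-/-relb-/- cells had 0 higher and 24 lower, beside 10.5% and 9.28% of all genes, with a median of -1.10. At 8 h over unstimulated cells 24 were higher with CpG (median 1.63) and 15 with Pam3CSK4 (median 0.71), and 0 were lower with either, beside 13.1% and 12.5% of all genes higher. Beside these medians stand the log2 differences of Cxcl10, at 0.95, 0.23 and -0.72 in the comparisons of genotypes in the order just given, of Ccl5, at 0.35, -0.08 and -0.43, and of Cxcl9, at -0.49, -0.47 and 0.02. These comparisons share their arrays.

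Other chemokine genes followed no single direction. Of 17 tested of 18 listed, 2 were higher and 0 lower in relb-/- over WT cells, namely Cxcl1 (1.89, adjusted p 3.92e-07) and Cxcl3 (0.44, adjusted p 0.0247), both attractants of neutrophils, beside 6.03% and 5.65% of all genes. The crel-/-relb-/- cells had 2 higher and 5 lower than WT cells, with the lowest values for Cx3cl1 (-1.14) and Ccl22 (-1.09), a ligand of CCR4, beside 7.65% and 7.74% of all genes. Against relb-/- cells 2 were higher and 4 lower, beside 10.5% and 9.28% of all genes. With 17 genes several of these counts are near the share over all genes. At 8 h over unstimulated cells 9 were higher and 0 lower with CpG, and 8 were higher and 2 lower with Pam3CSK4, beside 13.1% and 13.2%, and 12.5% and 13.6%, of all genes.

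Of 13 listed receptors, proteases and surface proteins that bind or trim these chemokines, 6 were tested. Cxcr3, Ccr1 and Ccr3 were too dim to be tested. Cd44, the hyaluronan receptor, fell by 0.37 in crel-/-relb-/- cells and by 0.41 in relb-/- cells relative to WT (adjusted p 0.00484 and 0.00259), and the heparan sulfate proteoglycan Sdc4 was 0.41 higher in relb-/- cells (adjusted p 0.0154). Dpp4, the protease that trims the ends of CXCR3 ligands, was called in none of the 3 comparisons of genotypes over all conditions. Of 12 genes tested around the 4 chemokines on chromosomes 5 and 11, 0 were called in relb-/- over WT cells, 1 lower (Taf15, -0.42) in crel-/-relb-/- over WT cells, and 1 higher (Ccl6, 0.53) in crel-/-relb-/- over relb-/- cells.

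The genes whose log2 intensity followed each chemokine most closely over the 21 arrays were described by Pearson's r, over arrays that share genotypes and conditions. For Ccl5 they were Ifit3 (0.972), Phf11d (0.963) and Stat2 (0.962), for Cxcl10 Fndc7 (0.866), Mx1 (0.842) and 9930111J21Rik2 (0.826), and for Cxcl9 Hmgn3 (0.943), Insm1 (0.900) and Bmp1 (0.878). Among the chemokines themselves, Cxcl10 and Ccl5 had an r of 0.639, Cxcl9 and Ccl5 of 0.260, and Cxcl9 and Cxcl10, with Art3 between them on chromosome 5, of 0.128.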

How the data were processed

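The authors deposited normalized probe intensities, of which 21 columns could be tied to samples by name; the normalization method, array build and scan batches are not given in the sources used here. A second deposited table, of unnormalized signals, has 21 columns that match no sample and was not used. Probes were named through the platform annotation (23978 with 1 symbol, 0 with several, 1719 unnamed), with 23962 symbols updated by Entrez identifier. A probe was tested when its 3rd highest log2 value lay above the median of all values, and the brightest such probe stood for a gene (10587 of 16593, 63.8%). Log2 intensities were fitted with limma 3.58.1 in R 4.3.3 (lmFit, eBayes with trend, two-sided, Benjamini-Hochberg over all tested genes, called under 0.05), tested on simulated data first. The additive model of genotype and condition had 12 residual degrees of freedom, the late-time model 10 and the agent model, on 18 stimulated arrays, 8. With 1 array per genotype and condition, p-values reflect constancy over conditions and not spread between animals, and precision is limited by the number of arrays. The comparisons with unstimulated cells share 3 arrays.

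Members, gene lists, markers and tests were chosen with earlier results of these data known. The text names the 4 chemokines, genes of the lists with the largest called changes, and the 3 genes most like each chemokine. Alternatives were normexp with an offset of 50 and quantile normalization, log2 of intensity plus 16, cyclic loess, no filter, the mean of a gene's probes, no trend, leaving out the array that stood apart, and leave-one-out of conditions or genotypes.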

Additional observations from a re-analysis of the deposited data

Results flagged for a closer look

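Both results below were singled out because every CpG array of crel-/-relb-/- cells lay on one side of its WT partner and every Pam3CSK4 array on the other. For Cxcl10 the log2 difference of crel-/-relb-/- over WT cells averaged 0.91 with CpG and -0.31 with Pam3CSK4 (n = 3 times each), a difference between agents of 1.22 ± 0.49 (SE). With CpG the differences were 0.01, 2.12 and 0.60 at 1, 8 and 24 h, so the first is close to 0. For Ccl5 the averages were 0.17 and -0.26, a difference between agents of 0.44 ± 0.14, and with CpG the 1 h difference was likewise close to 0, at 0.017. In the limma fit of genotype by agent neither was called (adjusted p 0.961 each), so that a difference between the agents was not shown.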

How the results depend on the processing

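No paired analysis was possible because each genotype and condition has 1 array and the labels give no replicate numbers that pair arrays; condition is already a term of each fit. Each chemokine has 1 probe, so the settings of no filter, mean probes and no trend could change its call but not its log2 difference. Of 483 values of the 3 tested chemokines under the other settings, these included, 465 kept their direction and side of the threshold, 12 lost and 2 gained their call, and 4 uncalled ones changed sign. Those were Ccl5 in crel-/-relb-/- over WT cells at 8 and 24 h (-0.086 with normexp, -0.024 with cyclic loess, -0.11 without the 24 h CpG array of crel-/-relb-/- cells) and in relb-/- over WT cells between agents (0.0086 with cyclic loess). Lost calls were Cxcl9 after 24 h with CpG (adjusted p 0.0572 with normexp, 0.0514 with 16 added, 0.0507 with no filter, 0.0579 with no trend, 0.0526 without that array), Cxcl10 there (0.051 and 0.0701 with normexp and without the array), Cxcl10 between 8 and 24 h of CpG (0.0507 with mean probes, 0.0547 with no trend, 0.0956 without the array), and Ccl5 in crel-/-relb-/- over relb-/- cells late (0.0539 with mean probes, 0.0665 with no trend). Gained were Ccl5 in relb-/- over WT cells late (0.0491 with normexp, 0.0242 without the array). Leaving out that array moved the genes called to 64 after 1 h with CpG, and to 25 and 169 between agents at 8 and 24 h (41, 11 and 261 with it). The cause was not tested.

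Leaving out conditions or genotypes in turn, 297 of 342 values kept direction and side, 15 lost and 6 gained their call, and 24 uncalled ones changed sign. Ranges of the genes called were, with all arrays in brackets, 452 to 656 (720) for relb-/- over WT late, 1 to 20 (18), 10 to 44 (40) and 11 to 82 (55) for the late-minus-early differences of relb-/- over WT, crel-/-relb-/- over WT and crel-/-relb-/- over relb-/-, 1011 to 1544 (1564) for crel-/-relb-/- over relb-/- late, and 0 to 11 (0) for the same pair between agents. Over unstimulated cells they were 9 to 29 (41), 1791 to 2329 (2786) and 1879 to 2341 (2881) for CpG and 64 to 121 (162), 1722 to 2379 (2765) and 1911 to 2594 (2948) for Pam3CSK4 at 1, 8 and 24 h. They were 763 to 991 (1483) for CpG and 554 to 916 (1229) for Pam3CSK4 between 8 and 24 h, and 20 to 43 (60), 2 to 24 (11) and 52 to 120 (261) between agents at 1, 8 and 24 h. Fewer arrays enter each of these fits. Values that changed sign ranged, for crel-/-relb-/- over WT, from -0.086 to 0.35 for Cxcl10, -0.11 to 0.094 for Ccl5 late and -0.096 to 0.18 for Cxcl9 between agents. For crel-/-relb-/- over relb-/- they ranged from -0.0079 to 0.049 for Cxcl9, -0.059 to 0.024 for it late and -0.039 to 0.13 between agents. For relb-/- over WT they ranged from -0.21 to 0.0051 for Cxcl9 late minus early, and between agents from -0.14 to 0.18 for Cxcl9, -0.50 to 0.29 for Cxcl10 and -0.10 to 0.083 for Ccl5. Over unstimulated cells Cxcl9 ranged from -0.056 to 0.0079 with CpG and -0.14 to 0.079 with Pam3CSK4 at 1 h, Cxcl10 from -0.30 to 0.12 between 8 and 24 h of Pam3CSK4, and between agents at 1 h Cxcl9 from -0.089 to 0.082 and Ccl5 from -0.045 to 0.10. Cxcl9 and unstimulated Cxcl10 lie near background, where folds are likely understated.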

Other observations

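Of all genes, 7.65% were called higher and 7.74% lower in crel-/-relb-/- over WT cells, and 6.03% and 5.65% in relb-/- over WT cells. In crel-/-relb-/- over relb-/- cells these shares were 10.5% and 9.28%. Lists as short as those below cannot set small counts apart from these shares. Neutrophil markers, of which 5 of 8 were tested, had 4 higher and 0 lower in crel-/-relb-/- over WT cells. They had 2 higher and 1 lower in relb-/- over WT cells, and 5 higher and 0 lower in crel-/-relb-/- over relb-/- cells. Their summed intensity was 2162 to 7239 in crel-/-relb-/- cells, 1012 to 4981 in relb-/- cells and 541 to 4258 in WT cells. Among them Ngp passed the filter through its crel-/-relb-/- arrays, at 47.2 to 78.7 against 50.2 or less elsewhere, so it had to differ. Macrophage and monocyte markers (7 tested) had 2 higher and 1 lower in crel-/-relb-/- over WT cells, and 2 higher and 4 lower in relb-/- over WT cells. Conventional dendritic cell markers (9 tested) had 2 higher and 5 lower in crel-/-relb-/- over WT cells, and 0 higher and 3 lower in relb-/- over WT cells. B cell markers (3 tested) had 0 called in either comparison with WT. Plasmacytoid dendritic cell markers (4 tested) had 1 lower in crel-/-relb-/- over WT cells and 0 called in relb-/- over WT cells.

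Irf7 was brightest late in relb-/- cells, with 846.3 at 24 h with CpG and 773.8 at 24 h with Pam3CSK4, against 231.0 and 96.1 in WT cells at the same times. In crel-/-relb-/- cells the 24 h values were 517.0 with CpG and 63.4 with Pam3CSK4. In unstimulated cells Irf7 had 34.2 in crel-/-relb-/- cells, 143.1 in relb-/- cells and 41.4 in WT cells. These values rest on 1 array each and were not tested one by one.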
